A study of Saccharomyces cerevisiae with 8 samples.

Results

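Autophagy carries cytoplasm and organelles into the vacuole for breakdown, and the ATG genes encode most of its core machinery. A kinase complex starts a membrane sac, a lipid kinase and the vesicles of Atg9 feed it, and the ubiquitin-like proteins Atg8 and Atg12 are conjugated as it grows. Receptors then tie chosen cargo to Atg8, and in growing yeast the related Cvt pathway delivers hydrolases to the vacuole. The ATG genes were taken by name, as all genes whose standard name is ATG followed by a number, which gave 36 of the 6225 genes on the array. Of these, 30 carried the symbol in the authors' deposited tables and 6 (ATG38, ATG39, ATG40, ATG41, ATG42 and ATG45) were named through the RefSeq gene table. Each was measured by 1 probe, and all 36 passed the filter on dim probes.

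The series set TFIIB mutant cells, called M1 in its title, against control cells of Saccharomyces cerevisiae strain CENPK.2-1C. TFIIB is a general initiation factor of RNA polymerase II, and the labels do not give the mutated residue. Both kinds of cells were grown in the rich medium YPD with or without 4 mM hydrogen peroxide (H2O2) and taken in exponential phase at an OD600 of 1.0. The 4 groups (mutant with H2O2, mutant without H2O2, control with H2O2, control without H2O2) have 2 one-colour Agilent arrays each, which the series calls biological replicates. The number of arrays limits the precision of every value.

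Signals are processed intensities in scanner units, or a percent of the 75th percentile of the same array, the scale used for the tests. Signals of different probes are not compared with each other. A second scale used the E1A spike-ins, control RNAs added to each labelling, which averaged 3210 to 4693 units on the mutant arrays and 2621 to 4079 units on the control arrays. The 75th percentile was 9.87 to 14.5 units on the mutant arrays and 9185 to 15424 units on the control arrays. SUA7, which encodes TFIIB, reached 6.08 to 9.71 units on the 4 mutant arrays, where its probe did not count as well above background. A probe counts so only if all its spots in use are marked. On the control arrays SUA7 stood at 13788 to 30808 units. The MATa-specific genes summed to 42.0 to 73.6 units on the mutant arrays (0 to 3 of 6 genes well above background) and to 76457 to 119490 units on the control arrays (6 of 6). The MATalpha-specific genes summed to 39.5 to 61.0 units on the mutant arrays (1 of 4 well above background) and to 1190 to 2420 units on the control arrays (2 of 4 on 1 array, 4 of 4 on the other three). All arrays share 1 slide, where the H2O2 cultures fill one row and each strain has its own columns, so slide position and group cannot be told apart.

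The question asked first was what growth in H2O2 did to the ATG transcripts of control cells. Of the 36 genes, 17 fell and 0 rose at an adjusted p under 0.05 (limma, Benjamini-Hochberg over 6045 genes), against 14% of all tested genes lower and 13.1% higher. The median log2 change of the ATG genes was -0.69, a 1.62-fold lower signal, and that of all tested genes was 0.03. In 29 of 36 the fitted change was below 0, against 48.3% of all genes. Both arrays with H2O2 lay below both arrays without it for 28 ATG genes and above them for 6, against 41.3% of all genes below and 45.3% above. For 2 genes (ATG16 and ATG45) the groups overlapped. At an unadjusted p under 0.05 there were 22 ATG genes (limma), ATG5 higher with H2O2 and the others lower. The share of all genes at that threshold is not given here. On the spike-in scale, where the median of all genes was -0.52, 17 fell (15.9% of all genes lower), of which 15 were among the first 17. There the ATG median was -1.24 and 34 of 36 lay below 0, against 4839 of 6045 genes tested. In these bulk samples fewer cells with a transcript and less of it per cell cannot be told apart.

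How many genes passed changed with the arrays in the fit and with the scaling. The 36 genes differed between the control arrays with H2O2 with an SD of 0.39 on the log2 scale, against 0.05 between those without H2O2. Spots of the same probe on 1 array without H2O2 also gave an SD of 0.05 for the mean of a pair. With the control arrays without H2O2 counted as 1 sample, 2 ATG genes passed (limma, 1.42% of all genes lower), and these were ATG39 and ATG42. The same genes were the 2 that passed when control array 2 with H2O2 was left out, where 5.19% of all genes were lower, so that 2 of 36 is near the share of all genes. They were also the 2 that passed without control array 1 or 2 without H2O2 (1.08% and 2.89% of all genes lower). In these fits the remaining array of the group is assumed to vary like the other groups. With the control arrays alone in the fit, 23 fell and 4 rose (25.9% and 31.5% of all genes). The 4 were ATG5, ATG10, ATG11 and ATG14. The spread in the fit of all 4 groups also draws on the mutant arrays. There ATG5, ATG10 and ATG11 were well above background on 0 arrays and ATG14 on 2. After quantile normalization ATG42 alone passed (1.22% of all genes lower).

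**Figure D1:**
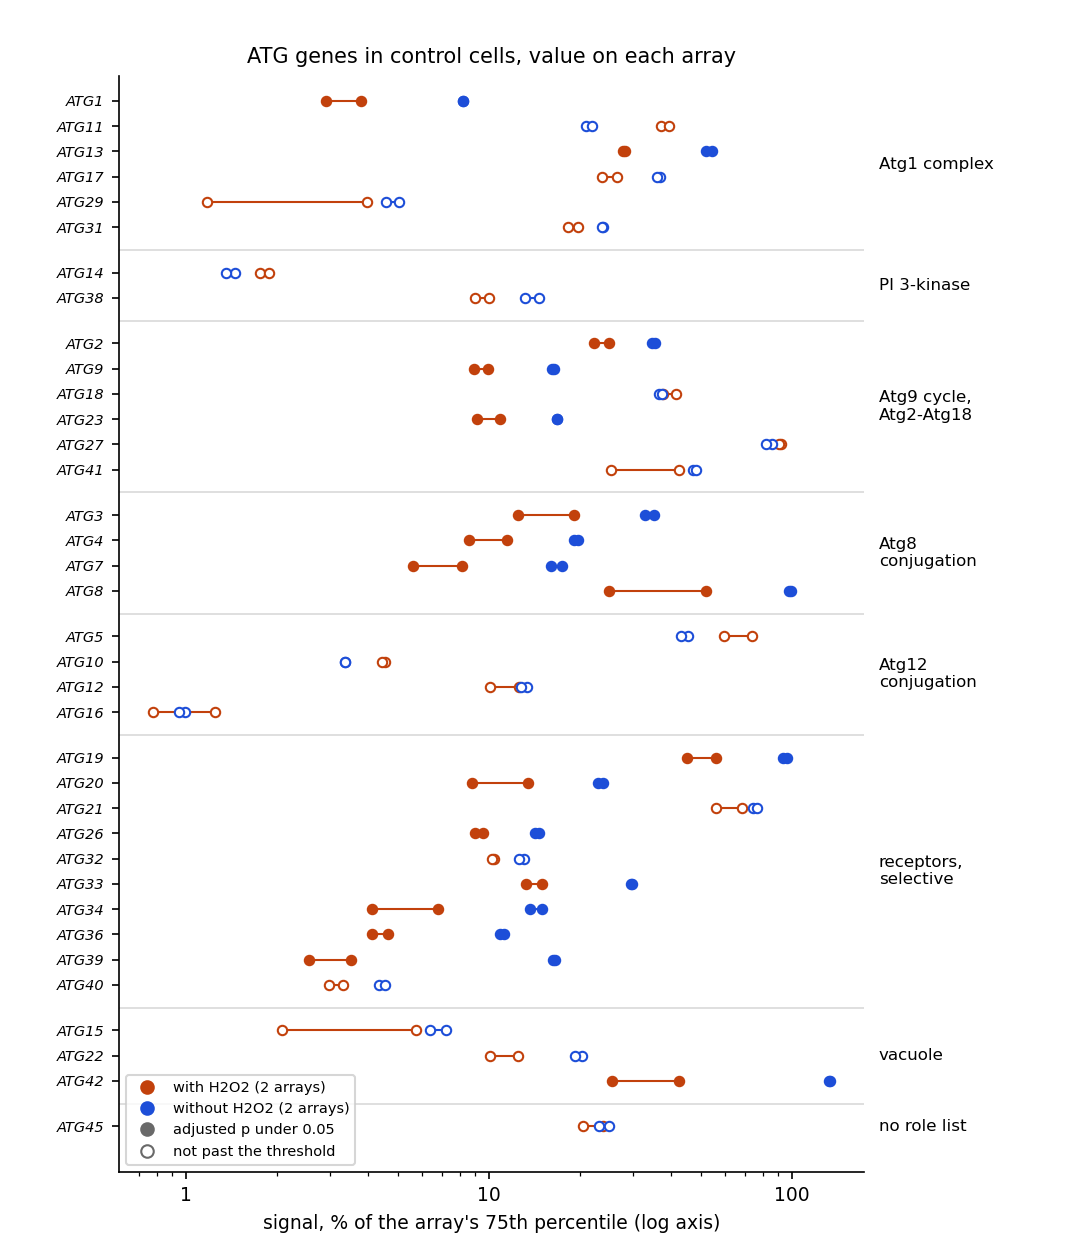
Signal of each ATG gene on the control arrays, as percent of the array's 75th percentile on a log axis, with H2O2 in orange and without H2O2 in blue (2 arrays each, joined by a line) and genes grouped by role. Filled points mark the 17 genes past the threshold, all lower with H2O2, and positions of different genes are not comparable.

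All 4 genes of the Atg8 conjugation set passed as lower, where 14% of all genes were lower. ATG8 encodes the ubiquitin-like protein that is joined to phosphatidylethanolamine on the growing membrane, and it lies on chromosome II at 80378 to 80731, minus strand, of release R64-1-1. Its signal was 52.2% and 24.9% of the 75th percentile with H2O2, against 99.6% and 98.0% without. The groups did not overlap, but the arrays with H2O2 lay apart, and the fall of 2.74-fold had a log2 change of -1.45 ± 0.44 (SE, n = 2 each, limma adjusted p = 0.0484). ATG4, the protease that trims Atg8 and frees it from lipid, was at 11.4% and 8.62% with H2O2, against 19.7% and 19.1% without (log2 change -0.96 ± 0.20, limma adjusted p = 0.0148). ATG7, the activating enzyme shared by Atg8 and Atg12, was at 8.17% and 5.61% with H2O2, against 17.4% and 16.1% without (log2 change -1.30 ± 0.24, limma adjusted p = 0.00983). ATG3, which passes Atg8 on to the lipid, was at 19.1% and 12.4% with H2O2, against 35.1% and 32.9% without (log2 change -1.14 ± 0.31, limma adjusted p = 0.0335). All 4 were lower on both H2O2 arrays (41.3% of all genes), and all 4 also fell on the spike-in scale (15.9% of all genes). None of them passed after quantile normalization.

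Of the Atg12 conjugation set, 0 of 4 passed the threshold (limma, 1 at an unadjusted p under 0.05), where 27.1% of all genes passed. ATG5, the target to which Atg12 is joined, was at 73.6% and 59.5% of the 75th percentile with H2O2, against 45.5% and 43.0% without (log2 change 0.58 ± 0.23, limma adjusted p = 0.101). ATG10, the conjugating enzyme of Atg12, was at 4.53% and 4.45% with H2O2, against 3.36% and 3.36% without (log2 change 0.42, limma adjusted p = 0.194). Both sat above the control arrays without H2O2 on this scale, while in scanner units their groups overlapped. ATG12 itself was at 12.6% and 10.1% with H2O2, against 13.4% and 12.8% without. ATG16, which holds Atg12 and Atg5 on the membrane, was at 1.25% and 0.777% with H2O2, against 0.995% and 0.947% without. The median log2 change was -1.22 over the 4 Atg8 conjugation genes and 0.22 over the 4 of the Atg12 branch, a difference that was not tested. ATG7, which serves both, was counted with the Atg8 genes.

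Of the 6 genes of the Atg1 kinase complex, 2 fell, where 14% of all genes were lower. ATG1, the kinase that starts the process (chromosome VII, 160065 to 162758, plus strand), was at 3.78% and 2.89% of the 75th percentile with H2O2, against 8.22% and 8.24% without. The groups lay well apart, with a 2.49-fold fall (log2 change -1.32 ± 0.25, limma adjusted p = 0.0109). ATG13, its regulatory subunit and a target of the TORC1 kinase, was at 27.6% and 28.1% with H2O2, against 54.4% and 52.1% without (log2 change -0.93 ± 0.19, limma adjusted p = 0.0131). The scaffold genes ATG17, ATG29 and ATG31 had log2 changes of -0.54, -1.16 and -0.32 and did not pass. For ATG29 the arrays with H2O2 stood at 3.97% and 1.17%, the widest gap of any ATG gene in that group (1.76 on the log2 scale), against 5.07% and 4.57% without. ATG29 passed on the spike-in scale (limma adjusted p = 0.0185). ATG11, the scaffold of selective autophagy, was at 37.0% and 39.2% with H2O2, against 20.9% and 21.9% without. It had the highest fitted change of the 36 (log2 0.83 ± 0.36, limma adjusted p = 0.133), and it was the 1 ATG gene whose H2O2 arrays were both higher in scanner units, against 9.74% of all genes.

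Neither ATG member of the lipid kinase complex passed in the fit of all 4 groups (limma, 1 of 2 at an unadjusted p under 0.05). There 27.1% of all genes passed. With the control arrays alone in the fit both passed, ATG14 as higher and ATG38 as lower. ATG14, which steers the kinase to autophagy, was at 1.75% and 1.88% of the 75th percentile with H2O2, against 1.45% and 1.36% without. ATG38, a linker within that complex, was at 9.97% and 8.98% with H2O2, against 13.2% and 14.6% without (log2 change -0.55, limma adjusted p = 0.0962). The 2 genes differed in sign on this scale, and on the spike-in scale both were below 0 (-0.18 and -1.10).

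Among the 6 genes of the Atg9 cycle and the Atg2-Atg18 pair, 3 fell, where 14% of all genes were lower. ATG9, the membrane protein of the vesicles that seed the sac, was at 8.91% and 9.94% of the 75th percentile with H2O2, against 16.2% and 16.4% without (log2 change -0.79 ± 0.19, limma adjusted p = 0.0236). ATG23, which acts in the traffic of Atg9, was at 10.9% and 9.11% with H2O2, against 16.8% and 16.8% without (log2 change -0.75, limma adjusted p = 0.0160). ATG27, another factor of that traffic, did not pass, at 91.98% and 90.6% with H2O2, against 86.2% and 82.4% without. ATG2, which moves lipid into the sac, was at 24.9% and 22.2% with H2O2, against 35.4% and 34.7% without (log2 change -0.57, limma adjusted p = 0.0380). It did not pass on the spike-in scale (limma adjusted p = 0.0616). Its partner ATG18, which binds the lipid made by the kinase, was at 41.4% and 37.5% with H2O2, against 36.6% and 37.4% without. ATG41, named ICY2 in the authors' deposited tables, was at 42.5% and 25.4% with H2O2, against 47.1% and 48.4% without, and did not pass.

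The receptors and other factors of selective autophagy held 7 of the 17 falls, among 10 genes that all had fitted changes below 0. Of all genes, 14% were lower and 48.3% had changes below 0. ATG39, the receptor for breakdown of the nuclear envelope and perinuclear ER (chromosome XII, 757637 to 758833, minus strand), was at 3.52% and 2.55% of the 75th percentile with H2O2, against 16.3% and 16.6% without. This 5.48-fold fall was the deepest of the 36 on both scales (log2 change -2.46 ± 0.24, limma adjusted p = 0.00313). In scanner units ATG39 gave 323.1 and 328.4 with H2O2, against 2509 and 2551 without. ATG36, the receptor for peroxisomes, was at 4.65% and 4.10% with H2O2, against 11.2% and 10.9% without (log2 change -1.34 ± 0.33, limma adjusted p = 0.0266). The 2 receptors of vacuolar hydrolases both fell. ATG19, which binds the precursor of aminopeptidase I and alpha-mannosidase, was at 56.4% and 45.0% with H2O2, against 96.3% and 93.4% without (log2 change -0.91, limma adjusted p = 0.0283). ATG34, which binds alpha-mannosidase on starvation, was at 6.77% and 4.12% with H2O2, against 14.97% and 13.7% without (log2 change -1.44, limma adjusted p = 0.0430). These 2 genes lie side by side on chromosome XV, ATG34 at 165714 to 166952 and ATG19 at 168727 to 169974 on the plus strand, with 1774 bases between them. As related genes their probes may share hybridisation, which was not tested.

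Of the genes tied to mitochondria, 1 of 2 fell, where 14% of all genes were lower. ATG33, an outer membrane protein needed for full mitophagy, was at 14.96% and 13.2% with H2O2, against 29.6% and 29.5% without (log2 change -1.07, limma adjusted p = 0.0411). ATG32, the mitophagy receptor, was at 10.4% and 10.2% with H2O2, against 13.1% and 12.5% without (log2 change -0.31 ± 0.21, limma adjusted p = 0.315). The difference between them was not tested. ATG40, the receptor for the peripheral ER, was at 2.97% and 3.31% with H2O2, against 4.34% and 4.54% without, and did not pass (limma adjusted p = 0.0974). ATG20, a sorting nexin of the Cvt pathway, was at 13.5% and 8.80% with H2O2, against 23.8% and 22.9% without (log2 change -1.10, limma adjusted p = 0.0321). ATG26, a sterol glucosyltransferase that acts in breakdown of peroxisomes in Komagataella, was at 9.57% and 9.01% with H2O2, against 14.6% and 14.2% without (log2 change -0.63, limma adjusted p = 0.0329). It did not pass on the spike-in scale (limma adjusted p = 0.0628). ATG21, a lipid-binding relative of Atg18, was at 68.5% and 56.1% with H2O2, against 74.4% and 76.8% without, and did not pass (log2 change -0.29).

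Of the 3 genes that act inside the vacuole, 1 fell, where 14% of all genes were lower. ATG42, a vacuolar serine carboxypeptidase (chromosome II, 515664 to 517190, plus strand), was at 42.3% and 25.5% of the 75th percentile with H2O2, against 133.7% and 132.2% without. The 4.05-fold fall was the second deepest (log2 change -2.02 ± 0.24, limma adjusted p = 0.00398). In scanner units ATG42 gave 3882 and 3289 with H2O2, against 20625 and 20363 without. ATG15, the lipase that opens the delivered bodies, was at 5.73% and 2.07% with H2O2, against 7.23% and 6.41% without, and its spread was wide (log2 change -0.98 ± 0.64, limma adjusted p = 0.300). ATG22, which exports amino acids from the vacuole, was at 12.5% and 10.1% with H2O2, against 20.2% and 19.2% without. It missed the threshold (log2 change -0.82 ± 0.27, limma adjusted p = 0.0625) and passed on the spike-in scale (limma adjusted p = 0.0351). ATG45, put in no role here, had a log2 change of -0.13.

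**Figure D2:**
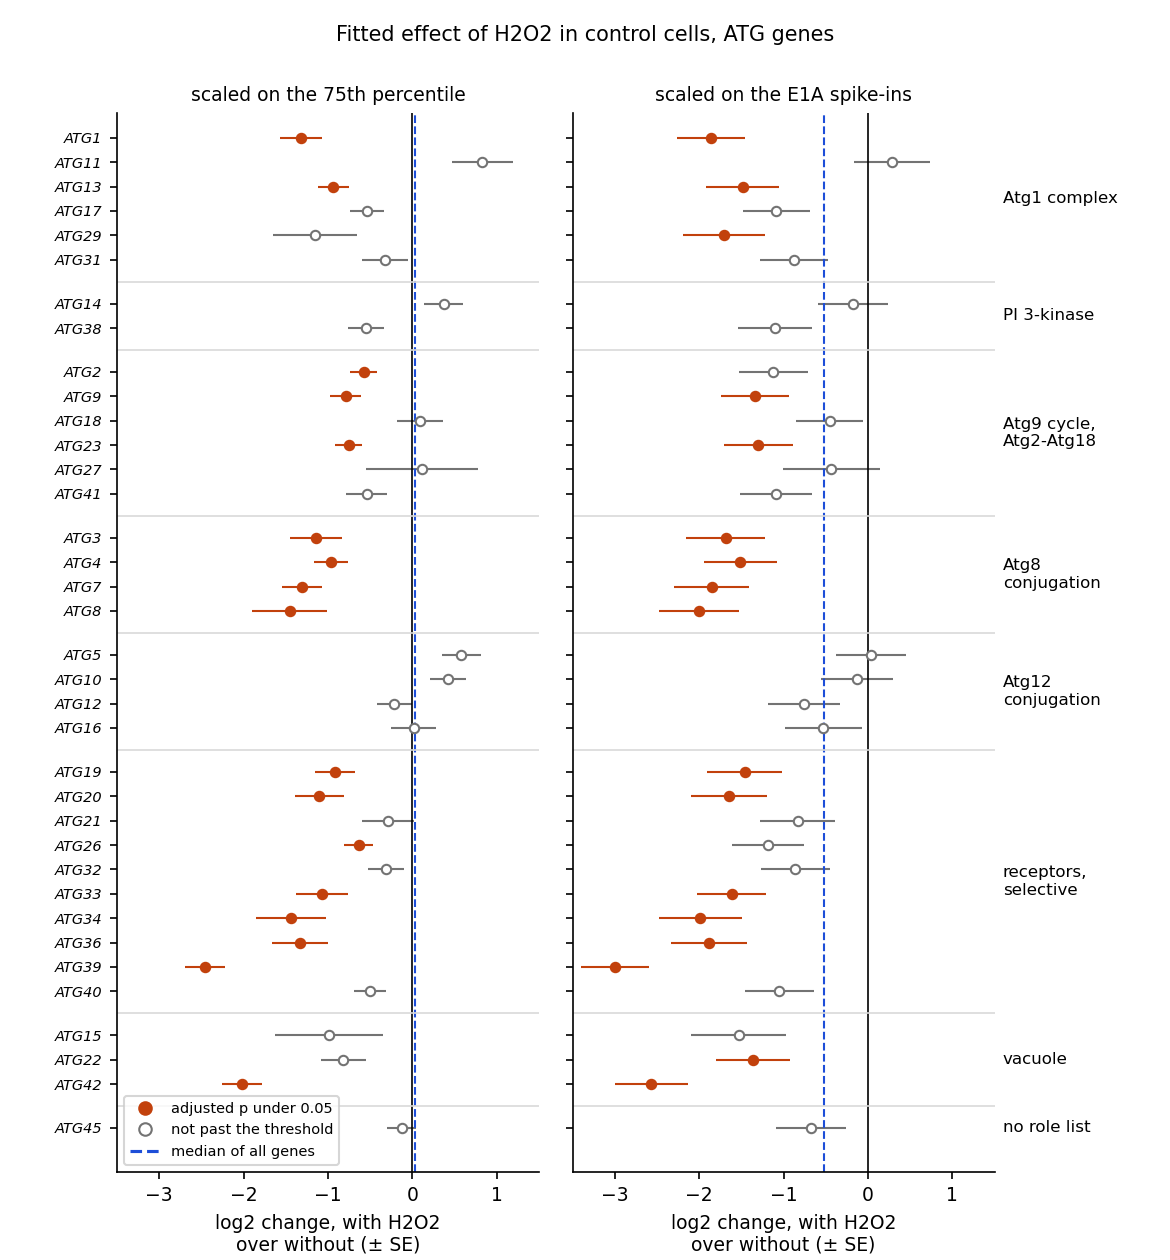
Fitted log2 change with H2O2 over without in control cells, with its standard error, for each ATG gene on the 75th percentile scale (left) and the E1A spike-in scale (right). Filled points passed the threshold, 17 on each scale, and the dashed line is the median of all genes, 0.03 on the left and -0.52 on the right.

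Genes that work with the ATG products were taken from 7 lists. Of the vacuolar hydrolases and Cvt cargo, 5 of 9 fell and 0 rose, with a median log2 change of -0.88, where 14% of all genes were lower. LAP4, which encodes aminopeptidase I and is the main Cvt cargo, was at 215.9% and 160.7% of the 75th percentile with H2O2, against 727.4% and 713.1% without (log2 change -1.95 ± 0.25, limma adjusted p = 0.00462). AMS1, alpha-mannosidase and the second cargo, was at 15.2% and 16.4% with H2O2, against 46.4% and 42.0% without (log2 change -1.49 ± 0.15, limma adjusted p = 0.00313). Both cargo genes thus fell along with ATG19 and ATG34. The proteases PRB1 and PRC1 fell by 1.69 and 0.88 on the log2 scale, as did PEP4, named after its value was seen, by 1.04. LAP4 and AMS1 were the 2 genes of this list that passed when the control arrays without H2O2 counted as 1 sample.

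In the remaining 6 lists 2 of 68 genes fell and 3 rose, against 14% of all genes lower and 13.1% higher, so these calls are values of single genes and no result about the lists. Of 12 partners of Atg9 traffic and membrane supply, SNX4, the sorting nexin that pairs with Atg20, fell (log2 change -1.34 ± 0.23, limma adjusted p = 0.00867). In the same list BET5, a TRAPP subunit, rose (0.65 ± 0.18, limma adjusted p = 0.0334). TOR1, a kinase of TORC1, the complex that restrains autophagy in rich medium, was at 31.9% and 35.3% with H2O2, against 15.3% and 14.97% without. It was the 1 gene of 16 in the TORC1 list to pass (log2 change 1.15 ± 0.32, limma adjusted p = 0.0388). Of 12 transcription regulators of autophagy genes, MSN4, a stress-response activator, fell (log2 change -1.48 ± 0.28, limma adjusted p = 0.0108). Of 16 genes of fusion with the vacuole, VPS33, a tethering subunit, rose (0.68 ± 0.17, limma adjusted p = 0.0261). None of the 3 remaining subunits of the Atg14 lipid kinase complex passed (VPS34, VPS15 and VPS30, with log2 changes of -0.42, 0.13 and -0.05), nor did any of 9 other factors of selective autophagy (limma, 1 of 3 and 2 of 9 at an unadjusted p under 0.05). BET5, TOR1 and VPS33 did not pass on the spike-in scale (limma adjusted p = 0.885, 0.376 and 0.849), and these 3, SNX4 and MSN4 did not pass when the control arrays without H2O2 counted as 1 sample (limma adjusted p from 0.0728 to 0.204).

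**Figure D3:**
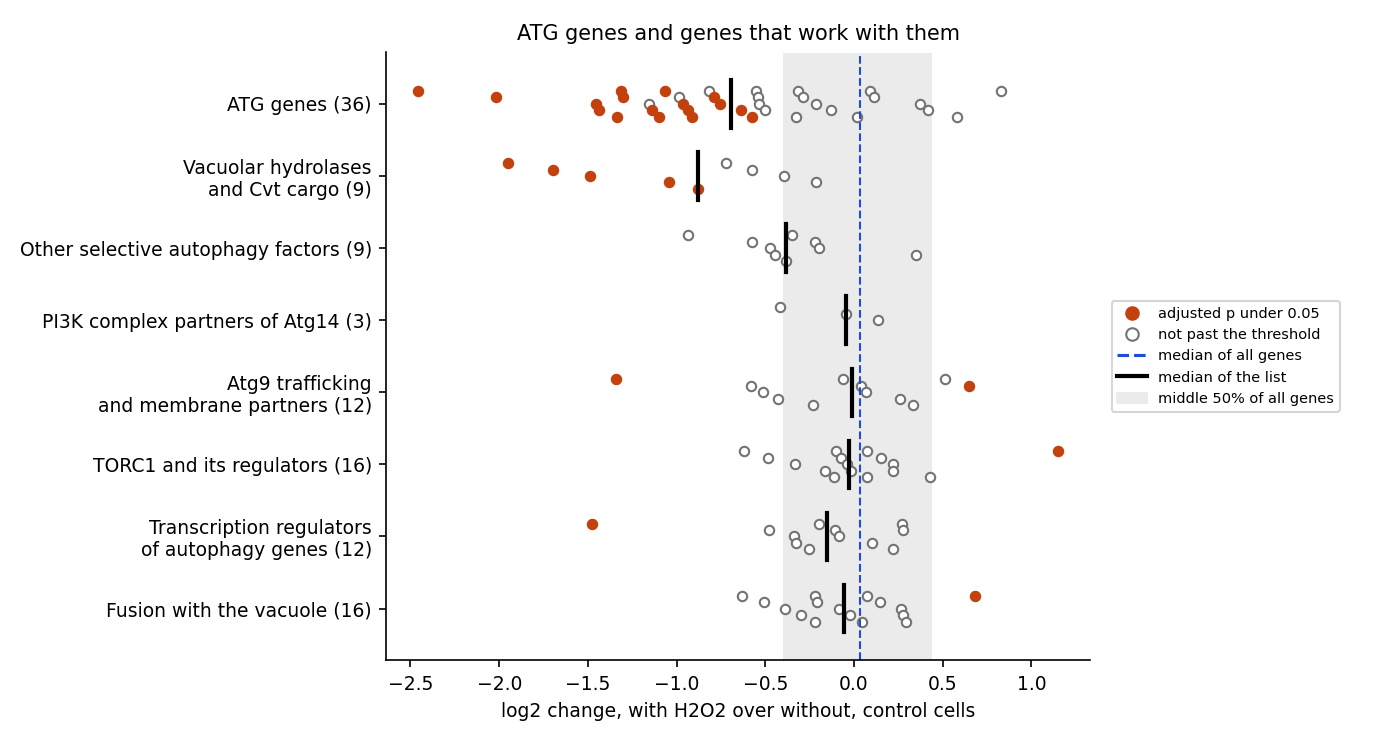
Log2 change with H2O2 over without in control cells for the 36 ATG genes and 7 lists of genes that work with them (number of genes in brackets), 1 point per gene, filled where it passed the threshold. The black bars are list medians, -0.69 for the ATG genes and -0.88 for vacuolar hydrolases and Cvt cargo, and the grey band holds the middle 50% of all genes.

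The design's own comparison sets mutant against control cells in each medium. On the mutant arrays the ATG probes gave 1.42 to 47.5 units, against 100.2 to 20625 units on the control arrays, and for every ATG gene, as for 99.4% of all genes, the 4 mutant arrays lay below the 4 control arrays. Of the 36 genes, 5 were well above background on all 4 mutant arrays (ATG9, ATG13, ATG18, ATG23 and ATG42), 10 on some and 21 on none, while all 36 were on each control array. The direction of the calls differed with the scale. On the 75th percentile scale 26 genes were higher and 4 lower in the mutant with H2O2 (51.7% and 28.3% of all genes), and 24 higher and 5 lower without H2O2 (50.5% and 28.8% of all genes). On the spike-in scale all 36 were lower in both media (99.4% of all genes lower with H2O2 and 99.6% without). Of the genes counted as higher, 15 with H2O2 and 11 without H2O2 were not well above background on either mutant array.

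ATG18 gave 35.1 and 34.2 units on the mutant arrays with H2O2, against 3803 and 4839 units on the control arrays with H2O2. Without H2O2 it gave 47.5 and 27.9 units on the mutant arrays, against 5638 and 5759 units on the control arrays. Its log2 change in the mutant without H2O2 was 3.24 on the 75th percentile scale and -7.58 on the spike-in scale. ATG9, ATG13 and ATG23 turned in the same way, with 2.97, 1.16 and 2.74 on the 75th percentile scale and -7.86, -9.67 and -8.09 on the spike-in scale without H2O2. ATG42 did not pass without H2O2 on the 75th percentile scale (-0.10, limma adjusted p = 0.710) and was at -10.93 on the spike-in scale. For the 25 genes not well above background on either mutant array with H2O2, the mutant signal was lower by at least 32.0-fold (ATG29) to at least 1356-fold (ATG27) relative to the spike-ins. Without H2O2 there were 22 such genes, lower by at least 22.4-fold (ATG16) to at least 2369-fold (ATG19). The part that the amount of labelled RNA has in these signals was not tested.

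The authors' deposited table for cells with H2O2 gave 13 of the 36 ATG genes a corrected p under 0.05, 11 up and 2 down in the mutant, against 25% of its genes up and 21% down. Their deposited table for cells without H2O2 gave 14, of which 11 were up and 3 down, against 25.5% of its genes up and 20.7% down. For ATG18 the authors' deposited tables list folds of 8.05 with H2O2 and 9.90 without H2O2, both up in the mutant.

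**Figure D4:**
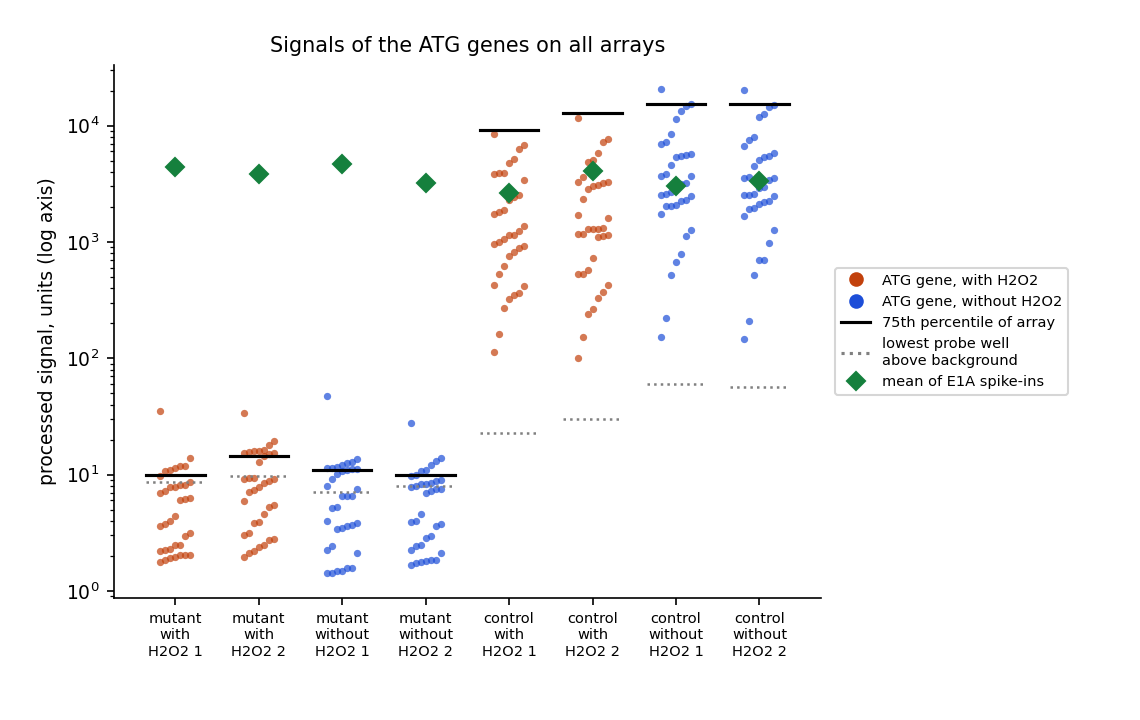
Processed signal in units on a log axis for the 36 ATG genes on each of the 8 arrays, with the array's 75th percentile (black line), the lowest probe well above background (dotted line) and the mean E1A spike-in signal (diamond). The ATG genes lie between 1.42 and 47.5 units on the mutant arrays and from 100.2 units upward on the control arrays, while the spike-ins lie between 2621 and 4693 units.

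Within the mutant arrays H2O2 moved 0 of the 36 genes past the threshold (limma), with 3 at an unadjusted p under 0.05 and 0.0331% of all genes called. Leaving out mutant array 1 or 2 without H2O2 gave 2 each (3.04% and 5.43% of all genes). The interaction is the H2O2 change in mutant cells minus that in control cells and shares its control arrays with the first comparison. It passed for 5 genes, all positive (ATG1, ATG7, ATG19, ATG39 and ATG42, against 6% of all genes). In either direction 11.6% of all genes passed, near the 13.9% of the ATG genes. For ATG42 the mutant arrays stood at 119.9% and 123.5% of their 75th percentile with H2O2 and 125.1% and 122.7% without, while the control arrays stood at 42.3% and 25.5% with H2O2 and 133.7% and 132.2% without. Its interaction was 1.99 ± 0.34 (limma adjusted p = 0.0237). On the mutant arrays ATG42 gave only 11.9 to 17.9 units, where the weakest signals marked as well above background were 7.15 to 9.73 units. Its H2O2 change there was thus measured close to background. Of the other 4, ATG1 and ATG39 were well above background on 1 of the 4 mutant arrays, and ATG7 and ATG19 on none. For these the mutant arrays measured no H2O2 change. Their interaction joins the fall in control cells to mutant values near background. The fitted log2 changes of the latter were 0.38 (ATG1), 0.34 (ATG7), 0.69 (ATG19) and -0.54 (ATG39). The count was 0 with the control arrays without H2O2 as 1 sample or without either of them (limma, 10 at an unadjusted p under 0.05 and 0% of all genes called each time). It was 1 without control array 2 with H2O2 (2% of all genes in either direction) and 8 without control array 1 with H2O2 (12.4%). It was 2 and 3 without mutant array 1 or 2 with H2O2 (6.04% and 5.41%), and 12 without mutant array 2 without H2O2 (20.5%).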

How the data were processed

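Each array's file holds a spot intensity made by Feature Extraction 10.7.1.1 for the authors, per the file headers: a processed signal after background subtraction, and a mark on each spot that stands well above background. The authors' deposited tables, 1 per medium, hold a fold with its direction, a p-value and a corrected p-value, and normalized log2 values, per the file headers. Their 8 columns of raw values were not used. Gene positions come from these tables (release R64-1-1), from which none was taken for ATG7, ATG29 or ATG38, and symbols from a RefSeq gene table. The planned search of promoters was not run, and no sequence was used here.

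Log2 processed signals of the 2 spots of a probe were averaged and the array's 75th percentile subtracted. Control spots and outlier spots were left out. Of 6225 genes, 6045 had, in at least 1 group, both arrays with a probe well above background, and these were tested in 1 fit of the 4 groups (limma 3.58.1, R 4.3.3, lmFit and eBayes, two-sided). For each of the 5 comparisons, the Benjamini-Hochberg adjusted p had to be under 0.05. The fit was checked on simulated data in which all arrays of a gene shared 1 SD. In the real arrays the SD within a group ran from 0.10 (control without H2O2) to 0.44 (mutant without H2O2) over all tested genes. The check does not cover such unequal spread. The spike-in scale subtracts the mean of 7 of 10 E1A probes, those well above background on all 8 arrays. A fold written as at least sets the bright group against a floor per array, which is the larger of what the dim probe gave and the weakest signal marked as well above background.

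The members, the lists and the alternatives were chosen with earlier results of these data known. All ATG genes could be named. Values on every array were given for the genes that passed for H2O2 in control cells, for the 6 others with the most extreme fitted changes and for the 4 others with the highest signal. Those of ATG10, ATG12, ATG14, ATG16, ATG32 and ATG40, which complete the roles, were added after their values were seen. SUA7 and, of each list, the members with the smallest p were also named. The alternatives were other scalings, normexp background correction with an offset of 50 (on the median signal and median background, since the files hold no mean signal), other filters, all probes averaged, only the compared groups, a variance trend, the replicate number as a block, the authors' normalized values, and each array left out. Correlations of the deviations of same-numbered arrays were 0.21 between the control groups with and without H2O2. Between the other groups they ran from -0.07 to 0.02. The numbers were not taken as pairs in the main fit. With the replicate number as a block, 12 ATG genes were called for H2O2 in control cells.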

Additional observations from a re-analysis of the deposited data

Results flagged for a closer look

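A test of the difference itself, the interaction of mutant and H2O2 (limma, adjusted over 6045 genes), passed for 5 of the 36 ATG genes. That is 13.9%, near the 11.6% of all genes called in either direction, so the count is no result about the ATG genes. The log2 change with H2O2 was higher on the mutant arrays than on the control arrays by 1.69 for ATG1 (adjusted p = 0.0302), 1.65 for ATG7 (adjusted p = 0.0296), 1.60 for ATG19 (adjusted p = 0.0296), 1.92 for ATG39 (adjusted p = 0.0245) and 1.99 for ATG42 (adjusted p = 0.0237). ATG42 alone among the 5 was well above background on all 4 mutant arrays, with a change of -0.03 in mutant cells, against -2.02 in control cells. Its mutant signals were still close to background, at 11.9 to 17.9 units, against 3289 to 20625 units on the control arrays. The other four were well above background on 1 mutant array (ATG1 and ATG39) or none (ATG7 and ATG19). Their change in mutant cells was thus not measured. Their interaction joins the fall in control cells to values near background, with fitted changes of 0.38 (ATG1), 0.34 (ATG7), 0.69 (ATG19) and -0.54 (ATG39). With the control arrays without H2O2 as 1 sample, 0 of the 36 passed (limma, 10 at an unadjusted p under 0.05).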

How the results depend on the processing

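In brackets stands the share of all genes called in either direction. For H2O2 in control cells (17 ATG genes called, 27.1%), quantile normalization gave 1 (1.82%), normexp with the 75th percentile 27 (70.1%, close to the share of the ATG genes), normexp with quantile normalization 0 (0.976%, limma, 2 at an unadjusted p under 0.05), the control groups alone 27 (57.5%), and the control arrays without H2O2 as 1 sample 2 (2.05%). The other 8 settings gave 12 to 17, and leaving out 1 array gave 2 to 21. The replicate block gave 12 called ATG genes for H2O2 in control cells (23.5%) and 5 for the interaction (8.21%). Other scalings, normexp or leaving out 1 control array gave 28 to 34 of 36 changes below 0. The 34 came from the spike-in scale, where 4839 of 6045 genes were below 0, against 48.3% of all genes in the main fit. The other settings leave the fitted change of the ATG genes as it is, so their count of 29 says nothing about stability. The filter on all groups, used for the interaction, tested only ATG9, ATG13, ATG18, ATG23 and ATG42 of the ATG genes. Of these, ATG42 alone had passed for the interaction in the main fit, so the calls under that filter are not a part of the main ones. For the interaction (5 called, 11.6%), quantile normalization gave 0 (0.182%, 5 at an unadjusted p under 0.05), the percentile over probes well above background on all arrays 3 (5.84%), normexp with the 75th percentile 26 (55.9%), normexp with quantile normalization 0 (0.926%, 3 at an unadjusted p under 0.05), the filter on all groups 3 (20.6%), the control arrays without H2O2 as 1 sample 0 (0%), and leaving out 1 array 0 to 12. For H2O2 in mutant cells (0 called, 0.0331%), quantile normalization gave 1 (1.51%), normexp with quantile normalization 1 (2.43%), and leaving out 1 array 0 to 2. For mutant against control, the filter on both groups gave 7 of 7 genes tested with H2O2 (90%) and 5 of 6 without H2O2 (87%), and leaving out 1 array gave 27 to 31 with H2O2 and 26 to 31 without. Some uncalled genes changed sign for H2O2 in control cells. ATG12 was at 0.025 after quantile normalization and 0.012 after normexp with it. On the spike-in scale ATG10 was at -0.13, ATG14 at -0.18, ATG16 at -0.53, ATG18 at -0.46 and ATG27 at -0.43. Leaving out 1 array moved ATG16 between -0.32 (without control array 1 with H2O2) and 0.36, and to -0.02 without control array 2 without H2O2. In mutant against control on the spike-in scale, ATG9, ATG13, ATG18 and ATG23 turned to -6.45, -8.02, -7.27 and -6.71 with H2O2, and ATG42 to -8.26. Without H2O2 the first 4 were at -7.86, -9.67, -7.58 and -8.09. Without H2O2 ATG42 turned to 0.26 after quantile normalization, 0.070 after normexp with it and 0.24 on the authors' normalized values. Apart from the scale itself, and the fewer genes or samples of the filters and left-out arrays, the cause of these moves was not tested. Signal over background limits every value on the mutant arrays.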
